A study of Mus musculus with 4 samples.

Results

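The Sall genes encode zinc finger proteins, the vertebrate relatives of the fly gene spalt, and the mouse has 4 of them, Sall1, Sall2, Sall3 and Sall4. The family was chosen by the TPM of its genes in knockout against control forelimbs, with that difference known. All 4 were found by their Ensembl identifiers among 35689 genes of the table, and all 4 passed the filter on low values that left 12809 genes for testing. RNA came from forelimbs at E11.5. The knockout embryos were PrxCre/+;Smarcc1c/c and the control embryos Prx+/+;Smarcc1c/c, so both are homozygous for a conditional allele of Smarcc1 and the knockout alone carries PrxCre, a Cre driven in the mesenchyme of the limb. A library is the pair of forelimbs from 1 embryo; in both genotypes replicate 1 had 40 somites and replicate 2 had 39. Smarcc1 encodes BAF155, which belongs to the core of the BAF chromatin remodeller. Whole buds also hold ectoderm, vessels and blood, which lie outside the domain of this Cre.

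Sall proteins bind DNA through pairs of zinc fingers and mostly repress transcription, in part by recruiting the NuRD complex, a chromatin remodeller with histone deacetylase activity, through a short motif at their start. In the limb bud Sall1 and Sall3 are known from the distal mesenchyme that forms the hand and foot plate, and Sall4 is known as a forelimb target and partner of the T-box factor Tbx5. Human SALL1 is mutated in Townes-Brocks syndrome and human SALL4 in Duane-radial ray syndrome, both of which affect the thumb side of the hand.

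RefSeq promoters (GRCm38.p6) were matched for 2 of the 4 genes, Sall1 with 3 starts and Sall2 with 2. The 250 bases before a start are printed for the 1 start of each that held a match, chosen after the search. The Sall1 start printed is that of the GENCODE gene, while the Sall2 start printed lies 12439 bases from the GENCODE start and the Sall2 start 92 bases from it held no match. Capitals mark matches, on either strand, to CTTTGA, the core bound by the TCF and LEF factors of WNT signalling, or to AGGTGT, a T-box half-site; ACCACCC, the core of the GLI motif, was also searched, and the matches did not overlap.
Sall1, chr8:89044163-89044412, minus strand: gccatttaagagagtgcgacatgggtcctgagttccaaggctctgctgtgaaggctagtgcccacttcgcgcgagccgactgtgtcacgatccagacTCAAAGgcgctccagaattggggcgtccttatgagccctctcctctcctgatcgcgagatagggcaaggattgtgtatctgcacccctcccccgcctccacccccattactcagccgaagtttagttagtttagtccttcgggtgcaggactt
Sall2, chr14:52316324-52316573, minus strand: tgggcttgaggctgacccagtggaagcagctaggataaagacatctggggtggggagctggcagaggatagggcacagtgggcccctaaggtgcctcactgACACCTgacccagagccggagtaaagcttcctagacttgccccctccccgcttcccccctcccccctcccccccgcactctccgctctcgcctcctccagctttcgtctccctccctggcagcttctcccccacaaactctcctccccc
The Sall1 start has 1 TCF/LEF match beginning 153 bases before it, and the Sall2 start has 1 T-box match beginning 149 bases before it. The other 2 Sall1 starts and the other Sall2 start had no match to any of these letters, and ACCACCC was in none of the 5. Among 32851 RefSeq promoter windows of the same length, 13.8% held the TCF/LEF letters, 11.8% the T-box letters and 3.92% the GLI letters. The GC content was 56.4% at the printed Sall1 start and 64.4% at the printed Sall2 start.

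Values are given in TPM (transcripts scaled to a fixed library total), which corrects for length and so allows levels of different genes to be compared; the read depth behind them is unknown. The number of genes at a TPM of 1 or more ran from 12555 to 12689. The targeted gene itself, Smarcc1, had 46.2 and 38.4 TPM in knockout forelimbs, against 112 and 119.6 TPM in control forelimbs (log2 fold change -1.44 ± 0.13, SE, n = 2 per genotype; limma, BH (Benjamini-Hochberg) adjusted p = 0.0117). Markers of forelimb mesenchyme were present in every library: Prrx1 had 129.9 and 139.8 TPM in the knockout, against 188.2 and 201.1 TPM in the control. The Y-linked gene Ddx3y had 0.0498 TPM (40 somites) and 28.3 TPM (39 somites) in the knockout, against 0.0130 TPM (40 somites) and 30.2 TPM (39 somites) in the control, so sex coincided with somite stage and was balanced between the genotypes.

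Sall1 (ENSMUSG00000031665; chromosome 8, 89027235 to 89044162 of mm10, minus strand), the kidney and distal limb member of the family, was lower in the knockout forelimbs, with 12.5 TPM at 40 somites and 13.2 TPM at 39 in knockout forelimbs, against 26.2 and 34.6 TPM in control forelimbs. Both knockout libraries lay below both controls, and the knockout pair was the tighter of the 2. The means were 12.9 ± 0.499 TPM in the knockout and 30.4 ± 5.92 TPM in the control (SD, n = 2 each), so the knockout stood at 42.4% of the control level. On the log2(TPM + 1) scale the difference, knockout minus control, was -1.16 ± 0.16 (SE); between embryos of the same stage it was -1.01 at 40 somites and -1.32 at 39. Of all genes tested, 87 (0.679%) had a log2 fold change as low as that of Sall1 or lower. The family was chosen with this contrast known, so that rank is a description and carries no weight as evidence. In whole buds fewer cells of a type and less RNA per cell cannot be told apart.

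Sall2 (ENSMUSG00000049532; chromosome 14, 52311172 to 52328762, minus strand), the most divergent member, which is known from eye development, stood at 21.3 and 26.1 TPM in knockout forelimbs and 21.4 and 24.8 TPM in control forelimbs. The groups overlapped, with both 40-somite libraries at nearly the same level, and the log2 difference was 0.03 ± 0.15 (SE, n = 2 per genotype). Sall3 (ENSMUSG00000024565; chromosome 18, 80966376 to 80986771, minus strand), known with Sall1 from the distal limb, stood at 4.50 and 5.27 TPM in knockout forelimbs and 4.78 and 7.54 TPM in control forelimbs. Its highest value was in the control embryo with 39 somites, and the other 3 libraries lay close together. The log2 difference was -0.26 ± 0.22.

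Sall4 (ENSMUSG00000027547; chromosome 2, 168748332 to 168767943, minus strand), a gene of early embryos and stem cells and a Tbx5 target in the forelimb, stood at 4.58 and 6.48 TPM in knockout forelimbs and 5.40 and 8.46 TPM in control forelimbs. The groups overlapped, because the 39-somite knockout lay above the 40-somite control, and the log2 difference was -0.27 ± 0.24 (SE, n = 2 per genotype). Between embryos of the same stage the difference was -0.20 at 40 somites and -0.34 at 39. Without the control embryo with 39 somites the differences of Sall3 and Sall4 were 0.024 and 0.015. That fit sets knockout embryos of both stages against a control with 40 somites. Between embryos of the same stage the difference of Sall3 was -0.07 at 40 somites and -0.45 at 39, below 0 at both stages as for Sall4.

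The family was chosen with this contrast known, so no p is given for its members and the counts below carry no weight as evidence. By limma with Benjamini-Hochberg adjustment at 0.05, 1 of the 4 members, Sall1, was among the genes called, as were 1.30% of all genes tested; 0.492% of all genes were lower and 0.812% higher by this rule. The groups did not overlap in 1 of 4 members, against 43.9% of all genes. The median log2 difference of the 4 was -0.26, against 0.0084 over all genes tested. Sall1 was no longer called without control replicate 2 or with no filter on low values. With no filter limma called 0 genes, although 2338 were under 0.05 before adjustment.

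**Figure D1:**
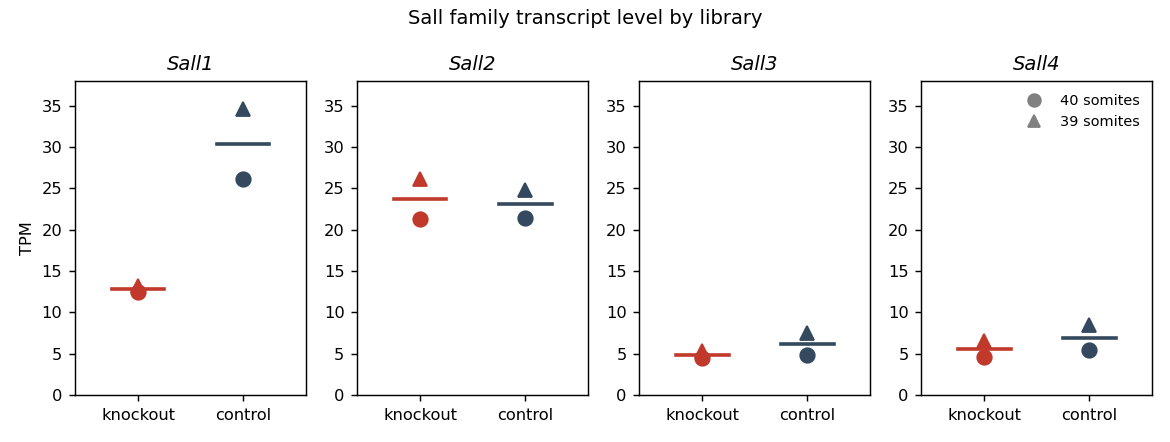
TPM (vertical axis) of each Sall gene in the 2 knockout libraries (left) and the 2 control libraries (right); circles are embryos with 40 somites, triangles embryos with 39, and lines are group means. Sall1 was at 12.5 and 13.2 TPM in the knockout, below both controls, and the other 3 genes overlapped between genotypes.

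The balance among the paralogs differed between the genotypes, with Sall1 and Sall2 changing places. The family was chosen with these values known, so the ratios, sums and shares given here and below are a description only. Taken singly, 43.9% of all genes tested did not overlap between the groups. In both knockout libraries the order of levels in TPM was Sall2, Sall1, Sall4, Sall3, and in both control libraries it was Sall1, Sall2, Sall4, Sall3. The ratio of Sall1 to Sall2 was 0.587 and 0.508 in the knockout libraries and 1.23 and 1.39 in the control libraries, with no overlap. Sall3 and Sall4 stood close in level: Sall4 was 1.02 and 1.23 times Sall3 in the knockout libraries and 1.13 and 1.12 times in the control libraries. Sall4 was thus the higher in every library, by a small margin that was not tested. Sall1 and Sall2 did not overlap within a genotype: in the knockout Sall1 reached at most 13.2 TPM and Sall2 began at 21.3 TPM, and in the control Sall2 reached at most 24.8 TPM and Sall1 began at 26.2 TPM, a narrow gap.

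Summed over the 4 genes, the family stood at 43.0 and 51.1 TPM in knockout forelimbs and 57.7 and 75.4 TPM in control forelimbs. The means were 47.0 ± 5.73 TPM in the knockout and 66.5 ± 12.45 TPM in the control (SD, n = 2 each), a difference of -19.5 TPM without overlap of the groups, of which Sall1 made up 89.6%. Without Sall1 the sum was 30.4 and 37.8 TPM in knockout forelimbs and 31.6 and 40.8 TPM in control forelimbs, and these overlapped.

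As a share of the family total, Sall1 took 29.2% and 25.9% in the knockout libraries and 45.4% and 45.9% in the control libraries. Sall2 took 49.7% and 51.1% in the knockout libraries and 37.0% and 32.9% in the control libraries. The shares of both genes were separated between the genotypes, in opposite directions, although the TPM of Sall2 was not; shares of 1 total are bound to each other in this way. Sall3 held between 8.27% and 10.5% and Sall4 between 9.35% and 12.7% of the total over the 4 libraries.

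**Figure D2:**
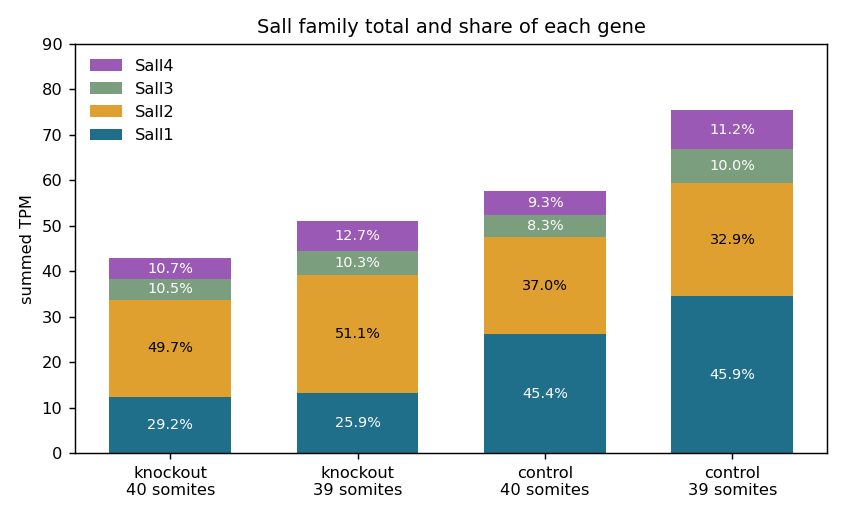
Stacked bars of TPM (vertical axis) for the 4 Sall genes in each library, knockout on the left, with each gene's percent of the library's family total printed in its segment. The Sall1 segment is 29.2% and 25.9% of the bar in the knockout and 45.4% and 45.9% in the control, while the segments above it sum to similar heights in embryos of the same stage.

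Among tested genes the level of Sall1 ranked above 41.5% of genes in both knockout libraries, and above 62.2% and 67.3% in the control libraries. Sall2 ranked above 55.5% to 59.3% of genes over the 4 libraries. Sall3 and Sall4 were the low members, above 21.3% to 29.1% and 21.6% to 31.4% of genes.

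The stage of the embryo is a contrast that the choice of the family did not use, and each genotype has 1 embryo of each stage. All 4 genes were lower at 40 somites than at 39 in both genotypes, as were 53.6% of all genes tested. The 4 genes were read in the same 2 pairs of embryos, so they do not count as separate observations of stage. None of the 4 passed the test of stage with genotype in the model (limma, BH-adjusted p between 0.170 and 0.279), where 0.164% of all genes did. Sall4 had the largest difference of the family, at -0.49 ± 0.11 on the log2 scale, 40 minus 39 somites (SE, n = 2 per stage; 95% interval -0.78 to -0.21). At an unadjusted p from limma, Sall4 (0.00720), Sall2 (0.0285) and Sall3 (0.0432) were under 0.05, and Sall1 was not (0.0846); 21.6% of all genes tested were under 0.05 for stage before adjustment.

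The other stage differences, 40 minus 39 somites, were -0.38 ± 0.14 for Sall3, -0.24 ± 0.08 for Sall2 and -0.23 ± 0.11 for Sall1 (log2 scale, SE). The median over all genes was itself -0.098, and with median-ratio scaling it was -0.0010; the family's values were then -0.13 for Sall1, -0.14 for Sall2, -0.29 for Sall3 and -0.40 for Sall4. For Sall1 the difference between stages was -0.07 in the knockout and -0.39 in the control, and for Sall3 -0.19 and -0.56; whether these differ between genotypes cannot be tested with 1 embryo each.

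Stage and sex cannot be told apart in these libraries. Fitted stage differences, 40 minus 39 somites, were above 0 for all 12 surface ectoderm markers, with a median of 0.60 on the log2 scale, and below 0 for all 8 endothelial markers, with a median of -0.68. None of these 20 markers passed the stage test in limma, and Krt8, an ectoderm marker, was lower at 40 somites within the knockout (18.5 TPM at 40 somites against 19.4 TPM at 39). The part of cell makeup in the family's stage differences was not tested.

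**Figure D3:**
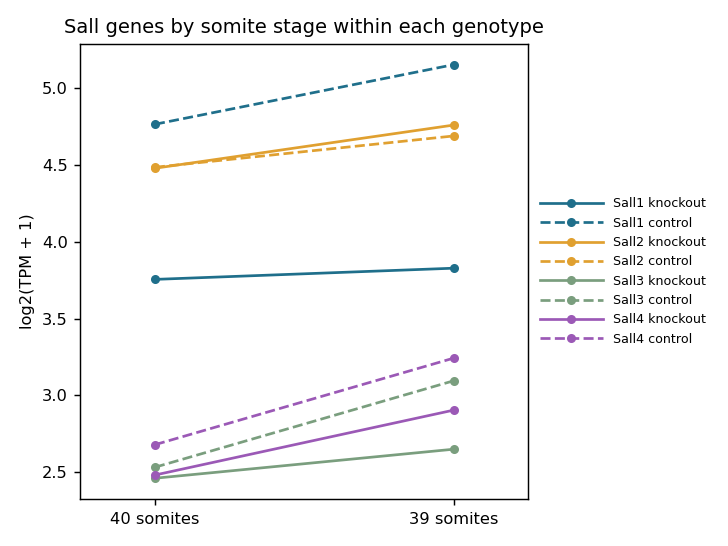
Levels of the 4 Sall genes as log2(TPM + 1) (vertical axis) at 40 somites (left) and 39 somites (right), with solid lines for the knockout and dashed lines for the control. Every line stands lower at 40 somites, and the knockout line of Sall1 lies apart from its control line at both stages.

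Of all the cell type markers tested, only Pdgfra passed in limma between genotypes, against 1.30% of all genes. Pdgfra, 1 of 5 mesenchyme markers, rose in the knockout, to 161.8 and 173.4 TPM against 79.5 and 84.0 TPM in the control (1.03 ± 0.11, n = 2 per genotype; limma, BH-adjusted p = 0.0165). Of the 5 mesenchyme markers 3 had log2 differences below 0: Prrx1 at -0.53, Prrx2 at -0.40 and Tbx5 at -0.05. The 5 summed to 607.9 and 688.3 TPM in the knockout libraries and 569.5 and 685.6 TPM in the control libraries, which overlapped. The summed TPM of the 12 surface ectoderm markers was 511.2 and 324.8 in the knockout libraries and 649.7 and 427.3 in the control libraries. All 12 had log2 differences below 0, with 0 passing in limma. The 7 macrophage markers, a lineage in which Sall1 is known from microglia, summed to 10.5 and 8.03 TPM in knockout forelimbs and 11.3 and 18.8 TPM in control forelimbs. The 8 endothelial markers summed to 63.5 and 91.2 TPM in the knockout against 47.6 and 90.5 TPM in the control. The 5 myoblast markers, with Pax7 near 0 throughout, came to 28.5 and 37.6 TPM against 28.3 and 22.0 TPM, and the 6 erythroid markers to 10167 and 9685 TPM against 8803 and 9082 TPM. The 5 neural markers came to 13.2 and 13.7 TPM in the knockout, against 15.1 and 16.7 TPM for the control. Their part in the level of Sall1 was not tested.

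Sall1 and Sall3 are known from the distal limb mesenchyme, so the genes of that region were read beside them. The list was chosen with earlier results of these data known, so its counts carry no weight as evidence. By limma 3 of 12 distal genes fell, 0 rose and 9 did not pass, against 1.30% of all genes called, and their median log2 difference was -0.52. The count was 4 with somite stage as a block, 2 with quantile scaling or without the variance trend, and 0 with no filter on low values. The 3 were Msx1, a homeobox repressor, at -1.75 ± 0.16, and the LIM homeobox genes Lhx2 and Lhx9, at -1.98 ± 0.22 and -1.35 ± 0.20 (SE, n = 2 per genotype; limma, BH-adjusted p = 0.0117, 0.0211 and 0.0416). The difference of Sall1, -1.16, was thus smaller in size than these and larger than that of Sall3. Of the 12 distal genes 11 had a difference below 0. The groups overlapped in Hoxd12, Hoxd13 and Wnt5a, at 0.14 ± 0.19, -0.19 ± 0.18 and -0.12 ± 0.14, and these did not pass. Of 8 proximal genes 0 passed in limma, and their median was 0.13. At an unadjusted p under 0.05 in limma were 0 of the 8 proximal genes, against 13.7% of all genes. By that rule 7 of the 12 distal genes were lower and 0 higher. With so few genes the 2 lists were not compared by a test. Shox2, which shapes the upper limb bones, stood at 104.0 and 152.7 against 89.5 and 96.3 TPM, and Hoxd9 at 26.5 and 43.1 against 44.7 and 57.3 TPM (limma, adjusted p = 0.390 and 0.385). Shox2 passed without knockout replicate 1 (log2 difference 0.71, adjusted p = 0.0198) and Hoxd9 without knockout replicate 2 (-0.91, adjusted p = 0.0012). Without knockout replicate 1 the difference of Hoxd9 was -0.23. Pbx3 and Hoxa9, the other 2 with the smallest p-values, had log2 differences of 0.29 ± 0.14 and -0.27 ± 0.15. The call for Lhx9 ended without control replicate 2 (0.0550), without the variance trend (0.0551) and with quantile scaling (0.0583).

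Upstream of the family, Tbx5, the forelimb T-box activator of Sall4, stood at 31.9 and 40.2 TPM in knockout forelimbs and 32.1 and 43.1 TPM in control forelimbs, with a log2 difference of -0.05 ± 0.18 and a 95% interval from -0.50 to 0.39. Tbx4, its hindlimb counterpart, rose in the knockout, to 15.5 and 19.3 TPM against 4.52 and 6.07 TPM in the control (1.55 ± 0.18, n = 2 per genotype; limma, BH-adjusted p = 0.0228). Both knockout libraries exceeded both controls, and Tbx4 remained below Tbx5 in all 4 libraries. The call for Tbx4 ended without control replicate 1 (0.0635).

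Tcf7, a WNT effector among the TCF and LEF factors, fell to 22.4 and 21.2 TPM in the knockout, against 36.0 and 42.9 TPM in the control (-0.82 ± 0.13, n = 2 per genotype; limma, BH-adjusted p = 0.0499). Lef1, a factor of the same family named here after its values were seen, stood at 19.0 and 16.3 against 30.5 and 36.1 TPM and did not pass (-0.88 ± 0.14; adjusted p = 0.0519). Lef1 passed with somite stage as a block (0.0385), a TPM filter of 5 (0.0365), a robust variance (0.0212) and without knockout replicate 1 or 2 (0.00061 and 0.0157). Axin2, a common WNT target, stood at 37.1 and 34.4 against 29.9 and 34.3 TPM. Binding at the Sall1 start was not measured, and the part of Tcf7 or Lef1 in the level of Sall1 was not tested. The call for Tcf7 ended with a pseudocount of 0.1 or 5 (0.0510 and 0.0527), with control replicate 1 or 2 left out (0.0753 and 0.139) and without the variance trend (0.0639).

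Of the factors with which Sall4 acts in limb buds, Gli3, the main GLI repressor gene, had a log2 difference of -0.23 ± 0.16, and Zbtb16, which encodes the zinc finger protein PLZF of proximal skeletal patterning, stood at 1.75 and 3.48 TPM in knockout forelimbs and 2.08 and 2.81 TPM in control forelimbs. Fgf10, a mesenchymal growth factor gene and joint target of Tbx5 and Sall4, stood at 8.93 and 10.6 against 8.34 and 10.8 TPM, a log2 difference of 0.03 ± 0.17 with a 95% interval from -0.39 to 0.44. Crbn, which encodes the receptor through which thalidomide leads to loss of human SALL4 protein, had a log2 difference of -0.13 ± 0.12. These 4 did not pass (limma, BH-adjusted p between 0.629 and 0.973). Isl1, a hindlimb activator of Sall4, stood at 1.09 and 0.800 against 0.728 and 0.374 TPM, under the filter on low values.

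Of the signalling genes on the same list, Fgf8 and Shh fell, and Fgf10, given above, did not pass. Fgf8, the ridge growth factor, fell to 53.7 and 45.6 TPM in the knockout, against 115.8 and 98.2 TPM in the control (-1.09 ± 0.14), and Shh to 4.59 and 6.38 TPM, against 17.5 and 14.6 TPM (-1.41 ± 0.18; n = 2 per genotype; limma, BH-adjusted p = 0.0283 and 0.0319). Each of these calls ended with median-ratio or quantile scaling and without control replicate 1 or 2 (adjusted p of 0.0504 to 0.0942). In all, of 14 tested regulators and partners reported here, 1 rose, 3 fell and 10 did not pass, against 1.30% of all genes called, and their median was -0.09. This list too was chosen with earlier results of these data known, so its counts carry no weight as evidence. The count of calls was 0 without control replicate 1 and 1 without control replicate 2.

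**Figure D4:**
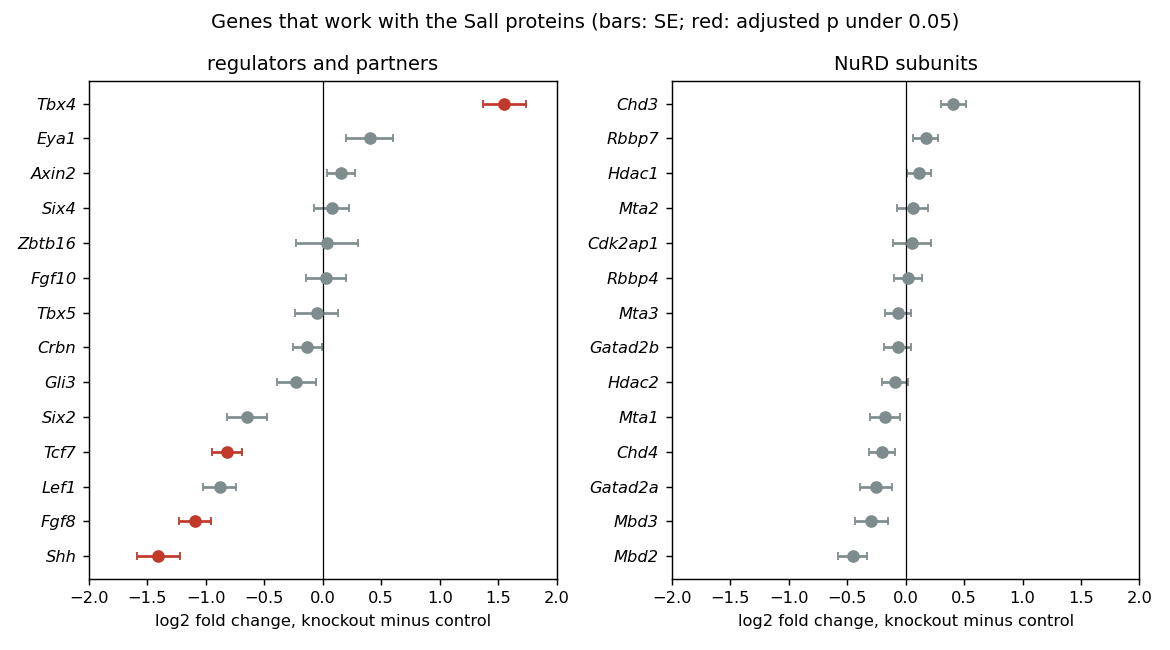
Log2 fold change, knockout minus control (horizontal axis), of regulators and partners of the Sall genes (left) and of NuRD subunits (right); points are limma estimates, bars SE, and red marks an adjusted p under 0.05. Tbx4 lies to the right and Shh, Fgf8 and Tcf7 to the left, while the NuRD subunits all lie between -0.45 and 0.41.

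The NuRD complex, which Sall proteins recruit, was expressed in all its main parts. Of 15 subunit genes 14 were tested and 0 passed in limma; before adjustment 1 was higher and 1 lower at p under 0.05, against 13.7% of all genes in either direction. The median log2 difference was -0.07. Chd3, a remodelling ATPase, stood at 139.2 and 141.0 TPM in knockout forelimbs against 101.2 and 109.7 TPM in control forelimbs, a log2 difference of 0.41 ± 0.10. Mbd2, a methyl-CpG-binding subunit, stood at 27.8 and 30.3 against 43.2 and 37.2 TPM, a difference of -0.45 ± 0.13. Their BH-adjusted p in limma was 0.165 and 0.194. The groups did not overlap in 9 of the 14 subunits, Chd3 and Mbd2 among them, against 43.9% of all genes.

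Mbd3, which takes the place of Mbd2 in other NuRD complexes, and Gatad2a, a scaffold subunit, had log2 differences of -0.29 ± 0.14 and -0.25 ± 0.14. Chd4, the main ATPase of the complex, stood at 117.3 and 129.6 against 136.7 and 147.5 TPM, the deacetylase gene Hdac1 at 196.1 and 188.2 against 175.6 and 179.0 TPM, and Hdac2 at 263.4 and 290.3 against 296.8 and 292.8 TPM. Chd5, an ATPase known from neurons, was at most 0.170 TPM in any library. With somite stage in the model 1 subunit, Chd3, passed (0.0496).

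Genes that accompany Sall4 in early embryos and stem cells were mostly below the filter: 3 of 16 were tested. Of these 1 rose and 0 fell in limma, against 1.30% of all genes called. The groups did not overlap in any of the 3, as in 43.9% of all genes. Like the other lists, it was chosen with earlier results of these data known, so its counts carry no weight as evidence. Lin28b, an RNA-binding protein gene that holds back let-7 microRNAs, rose to 43.5 and 58.1 TPM in the knockout, against 17.5 and 19.1 TPM in the control (1.41 ± 0.16, n = 2 per genotype; limma, BH-adjusted p = 0.0218). Lin28a, its paralog, stood at 7.95 and 10.7 against 6.16 and 5.62 TPM and did not pass (0.57 ± 0.17; adjusted p = 0.227). Mycn, a growth regulator, stood at 48.7 and 48.3 against 63.8 and 74.5 TPM and did not pass (-0.50 ± 0.12; adjusted p = 0.143). Pou5f1, Nanog and Sox2, the core pluripotency factors, stayed under a TPM of 1 in every library, while Sall4 stood between 4.58 and 8.46 TPM. The call for Lin28b ended without control replicate 1 or 2 (0.0753 and 0.0639).

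The surroundings of the 4 genes were read from protein-coding genes whose start lies within 500 kb of a Sall start. Of 33 such genes 17 were tested, 0 passed in limma, and before adjustment 2, both lower, were under a p of 0.05, against 13.7% of all genes. The median log2 difference was -0.03. Sall1 stands alone: its 1 tested neighbour, the deubiquitinase gene Cyld, whose start lies 347.1 kb downstream, had a log2 difference of -0.16 ± 0.14, against -1.16 for Sall1. Sall2 lies in a gene-rich stretch with 11 tested neighbours, whose differences ran from -0.35 to 0.15; the nearest, Mettl3, which encodes an RNA methyltransferase, had 0.13 ± 0.12.

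Sall3 and Sall4 have paralogous neighbours in the same order, a flippase gene (Atp9b and Atp9a) and then an NFAT transcription factor gene (Nfatc1 and Nfatc2). Atp9b, whose start lies 52.7 kb from that of Sall3, had a log2 difference of 0.22 ± 0.15, and Atp9a, at 25.5 kb from that of Sall4, of -0.28 ± 0.18. Nfatc1 and Nfatc2 are named after their values were seen. Nfatc1 stood at 2.17 and 1.91 TPM in knockout forelimbs against 4.95 and 6.91 TPM in control forelimbs (-1.17 ± 0.19; limma, BH-adjusted p = 0.0521), and Nfatc2 at 0.584 and 0.903 against 1.30 and 1.70 TPM (-0.52 ± 0.19; adjusted p = 0.307). In both the groups did not overlap, as in 43.9% of all genes. Nfatc1 passed in limma with somite stage as a block (0.0393), without the variance trend (0.0444) and with a robust variance (0.0223). With each library left out in turn, the log2 difference of Nfatc1 lay between -1.38 and -0.97. Nfatc1 is also known from endothelium, whose markers are given above, and that part was not tested. Zfp64, on the other side of Sall4, had a difference of -0.17 ± 0.14.

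**Figure D5:**
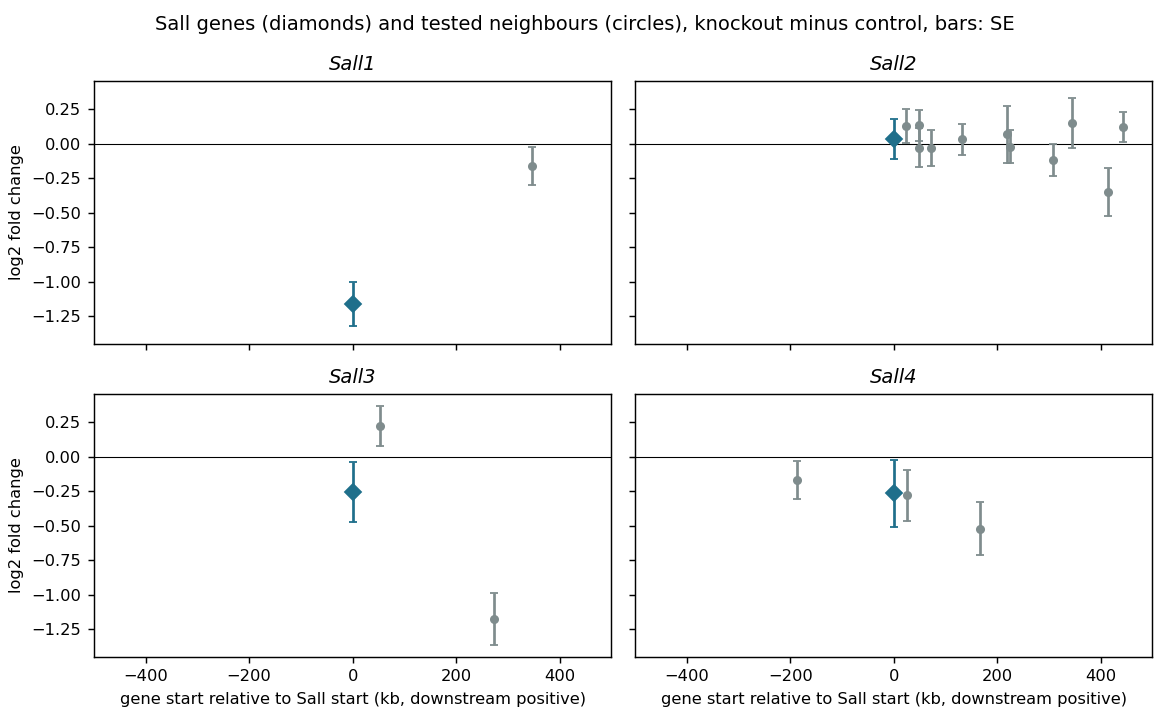
Log2 fold change, knockout minus control (vertical axis), of each Sall gene (diamond) and of the tested protein-coding genes around it (circles), by the distance of their start from the Sall start in kb, with bars for SE. Sall1 lies at -1.16 with its neighbour near 0, and Nfatc1 lies at -1.17 downstream of Sall3.

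The genes most like each member were named by Pearson's correlation of log2(TPM + 1) over the same 4 libraries. The candidates were 9155 protein-coding genes with a mean TPM of at least 5. Genes on the X and Y chromosomes and genes with only a predicted-gene or clone name were left out, and mitochondrial genes were not. With 4 libraries this is a weak description: 4.63% of those genes correlated above 0.95 with Sall1, 7.01% with Sall2, 5.13% with Sall3 and 7.26% with Sall4. The 3 most like Sall1 were Ankra2, Tcof1 and Zadh2, and the 3 most like Sall2 were Tmem127, Zfand3 and Vapa. For Sall3 they were Snrpd2, Arhgef17 and Thap7, and for Sall4 Haspin, Zfp580 and Kcp. Their differences were often much smaller than that of the Sall gene: Ankra2 stood at 9.74 and 9.87 TPM in knockout forelimbs and 11.2 and 11.8 TPM in control forelimbs.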

How the data were processed

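RNA was extracted from 4 forelimb pairs (310 and 330 ng of RNA for the knockout, 340 and 580 ng for the control) and sequenced on a DNBseq instrument, per the labels. The authors deposited 1 table of TPM values with 35727 Ensembl identifiers. Salmon 1.9.0 and mm10 are named in the submitters' processing notes, while the transcript set is not given in the sources used here. One column name carries a letter that its title lacks. Symbols were matched for 35422 identifiers (99.1%), and 38 repeated symbols were summed. Salmon divides reads between similar sequences, which can shift values between paralogs.

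The 12809 genes that reached a TPM of 1 in 2 or more libraries entered limma 3.58.1 (R 4.3.3) on the log2(TPM + 1) scale. The fit used a mean-variance trend and Benjamini-Hochberg adjustment at 0.05. The procedure was run on simulated data in which libraries varied independently. Those data lacked the differences in stage and sex of the real embryos, so the run does not show how the procedure behaves with them. Fold changes understate those of low genes. With 2 libraries a group, the smallest two-sided p of an exact permutation test is 0.333. In the main fit, p-values between genotypes measure the spread between embryos of the same genotype, which also differ in somite stage and sex. In limma that spread is shared in part across genes. Stage was tested with genotype in the model. Coordinates and neighbours come from GENCODE M21 (mm10), counted from 1, and promoters from RefSeq. Gm14261, antisense within Sall4, is not among the genes of the table, and strandedness was not used here.

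The members and lists were chosen with earlier results of these data known. Named were the Sall genes, Smarcc1, Tbx5, Gli3, Zbtb16 and Fgf10, list members that passed (otherwise up to 4 with the smallest p), the nearest tested neighbours and the 3 genes most like each member; other names were chosen after their values were seen. Alternatives were pseudocounts of 0.1 and 5, no filter, a TPM filter of 5, median-ratio and quantile scaling, stage as a block, no trend, robust variance and each library left out. One gene of the list of regulators and partners was left out after its values were seen and is not reported here, so that list's counts and median are without it.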

Additional observations from a re-analysis of the deposited data

Results flagged for a closer look

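Sall2 was the member whose difference between genotypes had opposite signs at the 2 stages: knockout minus control was -0.0021 at 40 somites and 0.070 at 39 somites on the log2(TPM + 1) scale, a gap of -0.072. There is 1 embryo per genotype and stage, so this was not tested.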

How the results depend on the processing

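The log2 difference of Sall1 lay between -1.36 and -0.97 over 13 alternatives. With each library left out in turn, it lay between -0.10 and 0.17 for Sall2, -0.54 and 0.024 for Sall3, -0.55 and 0.015 for Sall4, -0.26 and 0.16 for Tbx5, -0.32 and 0.39 for Zbtb16 and -0.14 and 0.20 for Fgf10. The log2 ratio of the family total was -0.50 and ran from -0.68 to -0.30 with a library left out, and the Sall1 share differed by -18.1 percentage points, from -19.7 to -16.5. Genes called between genotypes numbered 167 (104 higher, 63 lower); they were 533 with somite stage, which the replicate numbers follow, as a block, 275 with a robust variance and 0 with no filter on low values. They were 646 without knockout replicate 1, 501 without knockout replicate 2, 59 without control replicate 1 and 50 without control replicate 2. A lone library is assumed to vary like the others, so more calls without a knockout library are not stronger evidence. Genes called between stages numbered 21; they were 12 without the variance trend, 13 without genotype in the model and 0 with no filter, with 2788 then at an unadjusted p under 0.05 in limma. The cause was not tested. Same-stage libraries deviated from their group means together across genes (Pearson's r 0.25). With no filter no gene named in the text passed. Depth is unknown and limits low genes such as Sall3 and Sall4 most.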
